A study of Mus musculus with 96 samples.

Results

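Open chromatin at gene starts that was seen in hepatocytes but not in liver macrophages, which came from other mice, is described here. The members are the 200 bp peaks of the deposited hepatocyte table whose distance to the nearest annotated transcription start site (TSS) is at most 1000 bp and which overlap no peak of the deposited macrophage table by any base. There were 4888 such peaks, 10.4% of the 46832 hepatocyte peaks and 29.9% of the 16351 hepatocyte promoter peaks. They lie nearest to the TSS of 3538 genes. The other 11463 hepatocyte promoter peaks overlap a peak of the 30170 in the macrophage table.

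Accessibility was measured by ATAC-seq, in which a transposase cuts open DNA, on nuclei captured on beads from livers of female HEP-INTACT mice, whose hepatocyte nuclei carry a tag. Mice were fasted from ZT12, the onset of their active phase, and taken after 3, 8, 16 or 24 h, which falls at ZT15, ZT20, ZT4 and ZT12. Controls fed ad libitum were taken at each of these times, and each of the 8 groups held 4 mice, 32 in all. MAC-INTACT mice, treated the same way, gave the macrophage peaks, of which only the positions were used. The promoter that drives the tag, the strain and the age are not given in the sources used here. Reads in peaks numbered from 2458156 to 6098645 per mouse, and members took between 9.49% and 10.3% of them. Each library is a pool of nuclei, so that fewer open nuclei and less opening per nucleus cannot be told apart.

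Promoters fall into broad classes. Many genes used by all cells start in stretches rich in CpG dinucleotides that are open almost everywhere, whereas genes of a differentiated cell often start at sites with few CpGs, opened by tissue factors such as HNF4A, FOXA and C/EBP proteins. Hepatocytes secrete most plasma proteins, clear drugs, make bile acids and, when food is absent, release glucose and ketone bodies under the control of glucagon, glucocorticoids, PPARA and falling insulin.

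The labelled cell type was checked against defining markers. Of 15 hepatocyte marker genes, 14 had a member (among them Alb, Apoa1, Apob, Fga, Fgb, Serpina1a, Hnf4a, Cps1, Cyp2e1, Cyp3a11, Ahsg, Tat and Pck1) and 0 had a promoter peak in the macrophage table. Of 20 Kupffer cell and macrophage markers 0 had a member, a count that the rule largely fixes, since 18 of these genes had a promoter peak in the macrophage table. A hepatocyte promoter peak of any kind was found at 2 of the 20. Of 19 sinusoidal endothelial markers 0 had a member and 0 any hepatocyte promoter peak. Bile duct genes were present: 5 of 14 cholangiocyte markers had a member (among them Krt23, Pkhd1, Sox9 and Tm4sf4). The stellate cell list had 1 of 19 (Reln), the monocyte and neutrophil list 1 of 14 (Elane) and the lymphocyte list 1 of 19 (Tcf7).

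To show what such promoters look like, the 250 bases before the TSS are printed for 8 members whose peak covers most of that stretch, 5 that opened and 3 that closed in fasting. They are RefSeq sequences of build GRCm38.p6, 5′ to 3′ on the gene's strand. Capitals mark matches to the 17 motifs that are spelled out with the base composition further on. The 5 that opened are Mt2 (metallothionein 2), Plin4 (a lipid droplet coat protein), Fgf21 (a fasting hormone of the liver), Cdkn1a (the cell cycle inhibitor p21) and Apoa5 (an apolipoprotein that lowers triglycerides). The 3 that closed are F10 (coagulation factor X), Cyp2f2 (a cytochrome P450) and Mup3 (a major urinary protein).
Mt2: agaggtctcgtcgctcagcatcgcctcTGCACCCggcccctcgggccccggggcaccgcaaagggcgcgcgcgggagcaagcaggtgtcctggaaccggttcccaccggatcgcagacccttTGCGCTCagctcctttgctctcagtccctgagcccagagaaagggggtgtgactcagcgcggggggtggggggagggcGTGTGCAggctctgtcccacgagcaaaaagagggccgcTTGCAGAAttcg
Plin4: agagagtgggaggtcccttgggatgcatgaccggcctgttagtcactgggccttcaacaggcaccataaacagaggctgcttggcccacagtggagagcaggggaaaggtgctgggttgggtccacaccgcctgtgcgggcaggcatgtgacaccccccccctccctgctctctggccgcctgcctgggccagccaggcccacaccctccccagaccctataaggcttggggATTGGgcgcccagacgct
Fgf21: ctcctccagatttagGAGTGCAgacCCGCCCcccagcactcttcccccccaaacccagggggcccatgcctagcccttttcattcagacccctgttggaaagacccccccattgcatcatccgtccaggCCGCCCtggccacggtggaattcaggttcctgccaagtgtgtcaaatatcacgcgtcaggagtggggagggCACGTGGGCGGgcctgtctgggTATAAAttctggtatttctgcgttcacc
Cdkn1a: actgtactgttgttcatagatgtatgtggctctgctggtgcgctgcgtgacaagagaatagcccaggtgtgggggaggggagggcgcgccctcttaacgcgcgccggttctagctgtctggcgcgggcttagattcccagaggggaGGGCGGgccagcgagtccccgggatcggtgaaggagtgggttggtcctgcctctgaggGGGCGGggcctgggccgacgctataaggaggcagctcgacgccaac
Apoa5: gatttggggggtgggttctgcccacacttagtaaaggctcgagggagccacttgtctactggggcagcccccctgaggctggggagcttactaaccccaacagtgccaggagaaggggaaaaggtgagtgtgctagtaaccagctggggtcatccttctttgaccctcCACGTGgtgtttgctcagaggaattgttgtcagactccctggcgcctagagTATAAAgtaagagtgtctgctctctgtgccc
F10: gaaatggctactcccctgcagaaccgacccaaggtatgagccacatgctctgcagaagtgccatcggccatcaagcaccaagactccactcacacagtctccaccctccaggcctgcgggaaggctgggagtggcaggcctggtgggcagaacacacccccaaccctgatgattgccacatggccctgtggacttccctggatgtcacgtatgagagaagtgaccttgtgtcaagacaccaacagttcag
Cyp2f2: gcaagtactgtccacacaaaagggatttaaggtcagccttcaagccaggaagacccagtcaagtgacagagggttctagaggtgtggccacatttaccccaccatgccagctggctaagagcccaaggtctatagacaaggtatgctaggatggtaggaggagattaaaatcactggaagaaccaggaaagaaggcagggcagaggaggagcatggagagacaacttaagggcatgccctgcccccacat
Mup3: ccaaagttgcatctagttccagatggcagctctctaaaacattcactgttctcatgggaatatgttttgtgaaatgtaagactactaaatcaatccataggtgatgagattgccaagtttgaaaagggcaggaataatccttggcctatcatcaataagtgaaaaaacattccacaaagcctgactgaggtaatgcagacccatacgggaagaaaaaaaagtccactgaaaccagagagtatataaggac

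The stretches lie at chr8:94172368-94172617 for Mt2, chr17:29093519-29093768 for Cdkn1a, chr9:46268358-46268607 for Apoa5, chr8:13037058-13037307 for F10 and chr7:27119705-27119954 for Cyp2f2, all on the plus strand. On the minus strand lie Plin4 at chr17:56109783-56110032, Fgf21 at chr7:45615491-45615740 and Mup3 at chr4:62087318-62087567. The Mt2 promoter holds 3 matches to the metal response element, starting 223, 128 and 50 bases before the TSS, and a C/EBP site at 12 bases. Fgf21 holds a TATA box 28 bases and Apoa5 one 31 bases before the TSS, and each holds an E-box, at 50 and 82 bases. The E-box of Fgf21 overlaps its GC box at 45 bases. F10, Cyp2f2 and Mup3 hold no match to any of the 17 motifs in these 250 bases.

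An opened peak has here more, and a closed peak fewer, normalized reads in fasted than in fed mice of the same time, at an adjusted p under 0.05 in limma over all 46827 tested hepatocyte peaks. Fold changes are on the scale of log2(normalized reads + 2) and so understate changes from levels near 0. All 4888 members passed the filter on low values. A peak carries the name of the gene with the nearest TSS, which does not show that it controls that gene, and its position is given relative to that TSS with a minus for upstream.

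After 3 h of fasting the largest openings were at Mt2, Lpin1, Ppp1r3g and Plin4 and the largest closings at Ccdc69, Car3 and Scd1. In all, 752 of the 4888 members (15.4%) opened, against 11.3% of all tested peaks, and 374 (7.65%) closed, against 10.3%. At least 2-fold, 106 opened (2.17%; 2.68% of all tested peaks) and 61 closed (1.248%; 2.33% of all). The largest opening was at Mt2, whose product buffers zinc and copper ions, in a peak at -138 bp (chr8:94172380-94172580). The 4 fed mice had 1.45, 1.93, 4.11 and 5.90 normalized reads and the 4 fasted mice 70.5, 71.1, 97.1 and 104. Every fasted mouse stood far above every fed mouse (log2 fold change 4.10 ± 0.40 SE, adjusted p = 3.92e-09). A peak at -337 bp of Lpin1, a phosphatidate phosphatase (chr12:16590007-16590207), had 6.53, 12.3, 12.5 and 13.5 in fed and 64.5, 104, 111 and 135 in fasted mice. These groups do not overlap either (2.99 ± 0.39, adjusted p = 1.07e-06). Other large openings lay at Ppp1r3g, a glycogen-targeting subunit of protein phosphatase 1 (5.30-fold), at Btg3, an antiproliferative protein (3.87-fold), and at Hp, the hemoglobin binder haptoglobin (3.65-fold).

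Plin4 opened at -103 bp (chr17:56109805-56110005), with 21.3, 23.9, 25 and 29.5 in fed against 104, 131, 142 and 160 in fasted mice. No mouse of either group reached the other (2.33 ± 0.22, adjusted p = 2.52e-09). The closed side was led by Ccdc69, whose peak at 436 bp fell 6.97-fold from 57.5 ± 28.6 to 5.86 ± 2.03 (SD, n = 4) and lies 9 bp from a macrophage peak. Car3, a carbonic anhydrase, had 100.1, 111, 112 and 115 in fed and 7.64, 14.7, 18.2 and 33.5 in fasted mice at -96 bp (chr3:14863342-14863542). The groups stood apart (-2.60 ± 0.30, adjusted p = 8.49e-08). Scd1, the desaturase that makes oleate, had 85.6, 101, 121 and 136 in fed and 14.7, 15, 16.5 and 20.7 in fasted mice at -178 bp (chr19:44407787-44407987). No fasted mouse came near a fed one (-2.58 ± 0.23, adjusted p = 7.53e-10). Further closings lay at Alyref2 (4.36-fold), at Pdxp, the pyridoxal phosphatase (3.95-fold), and at Mansc4 (3.42-fold).

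At 8 h the lists of opened and closed members were longer. A total of 1071 members opened (21.9%; 20.3% of all tested peaks) and 488 closed (9.98%; 13.7% of all). At least 2-fold, 157 opened (3.21%; 4.18% of all) and 94 closed (1.92%; 4.30% of all). Centring each library to an equal median, or to an equal median ratio, lowered the opened share of called members from 68.7% to 54.5% and 55.2%. Among all called peaks this share went from 59.7% to 46.4% and 47.1%. Cpt1b, the muscle form of the carnitine palmitoyltransferase that admits fatty acids to mitochondria, opened at -210 bp (chr15:89425972-89426172). Fed mice had 7.34, 7.74, 11.1 and 13.2 and fasted mice 59.2, 65.5, 69.2 and 96.8. Every fasted mouse stood above every fed mouse (2.66 ± 0.24, adjusted p = 1.50e-10). A second Mt2 peak, at 60 bp, opened 8.77-fold, Plin4 5.30-fold, Tns1, a focal adhesion protein, 4.76-fold, and Cyp4a14, a fatty acid omega-hydroxylase, 4.18-fold. The peak at Rrp36, a ribosomal RNA processing factor, opened 5.07-fold.

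Among closed members at 8 h, Slc22a7, an organic anion transporter of the hepatocyte, had 142, 164, 167 and 201 in fed and 9.66, 18.4, 26.3 and 33.9 in fasted mice at -193 bp (chr17:46438570-46438770). The groups lie far apart (-2.93 ± 0.34, adjusted p = 2.93e-08), and a neighbouring member at 31 bp fell as well (-2.75 ± 0.32, adjusted p = 2.49e-08). Htra4, a serine protease, closed 6.50-fold, Rgn, the calcium-binding regucalcin, 5.13-fold, and Scd1 5.02-fold. Cyp2f2, whose promoter is printed above, had 32, 45.2, 45.5 and 57.8 in fed and 10.7, 11.04, 12.6 and 22.6 in fasted mice. Its groups do not overlap (-1.57 ± 0.21, adjusted p = 4.21e-07).

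At 16 h, when mice were taken at ZT4, 850 members opened (17.4%; 19.0% of all tested peaks) and 396 closed (8.10%; 12.8% of all). At least 2-fold, 87 opened (1.78%; 2.74% of all) and 90 closed (1.84%; 4.02% of all). The opened share of called members was 68.2%, and 55.5% with median centring and 49.5% with median ratio centring. Among all called peaks it was 59.85%, 49.0% and 43.6%. Rrp36 (4.73-fold), Cpt1b (4.55-fold), Cyp4a14 (4.46-fold) and Tnfrsf12a, a receptor of the TNF family (4.01-fold), were among the largest openings. Cyp4a14 had 5.90, 6.99, 17 and 18.1 in fed and 41.5, 54.5, 58.2 and 70.7 in fasted mice at -72 bp (chr4:115496113-115496313). Fasted and fed mice did not overlap (2.16 ± 0.29, adjusted p = 5.61e-07). The peak of Fgf21 at -83 bp (chr7:45615473-45615673) had 12.8, 23.1, 24.4 and 27.9 in fed and 63.9, 64.4, 67.3 and 68.1 in fasted mice, again without overlap (1.55 ± 0.18, adjusted p = 4.08e-08). Closed peaks included Lrrc26 (5.52-fold) and the serine proteases Htra1 (4.93-fold) and Htra4 (4.89-fold). Slc22a7 at -193 bp closed 4.40-fold, and Colgalt2, a collagen galactosyltransferase, 4.28-fold.

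At 24 h, back at ZT12, 1203 members opened (24.6%; 25.3% of all tested peaks) and 308 closed (6.30%; 11.4% of all). At least 2-fold, 55 opened (1.13%; 1.05% of all) and 83 closed (1.70%; 3.70% of all). This time depends most on scaling. The opened share of called members was 79.6% as deposited, 66.7% with median centring and 50.3% with median ratio centring. Among all called peaks it was 69.1%, 55.2% and 40.55%. The median log2 fold change of all tested peaks, 0.16 as deposited, became 0.02 with median ratio centring. Cdkn1a had 10.9, 15.9, 20.1 and 22.6 in fed and 83.1, 96.3, 111 and 115 in fasted mice at -69 bp (chr17:29093600-29093800), with no overlap (2.45 ± 0.28, adjusted p = 7.30e-08). Plin4 stayed high, with 22.0, 29.8, 34.2 and 44.9 in fed and 122, 132, 145 and 153 in fasted mice, and every fasted mouse was above every fed one (2.05 ± 0.22, adjusted p = 2.81e-08). Apoa5 showed a small but tight rise at -70 bp (chr9:46268438-46268638), from 122, 124.9, 127 and 130 in fed to 176, 201, 203 and 215 in fasted mice, groups that do not overlap (0.65 ± 0.09, adjusted p = 1.28e-06).

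Srebf1, whose product switches on lipogenic genes, had 42.2, 43.4, 48.1 and 56.5 in fed and 7.14, 8.95, 9.01 and 15.2 in fasted mice at 70 bp (chr11:60222411-60222611). The groups do not overlap (-2.07 ± 0.20, adjusted p = 3.47e-09), and a macrophage peak lies 188 bp away. Mup3 had 29.4, 29.9, 43.4 and 47.3 in fed and 3.89, 4.91, 6.64 and 7.57 in fasted mice at -83 bp (chr4:62087300-62087500), also apart (-2.35 ± 0.31, adjusted p = 1.03e-06). Mup3 belongs to a family of near-identical genes, as do the Cyp4a and Ces genes and Hamp2, so reads may have been split between copies. Car3 (5.66-fold), Scd1 (4.68-fold) and Colgalt2 (4.46-fold) were also closed. So was the peak at Hcls1 (4.89-fold), a gene known from blood cells, which lies 462 bp from a macrophage peak; the part of other cells in it was not tested.

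**Figure D1:**
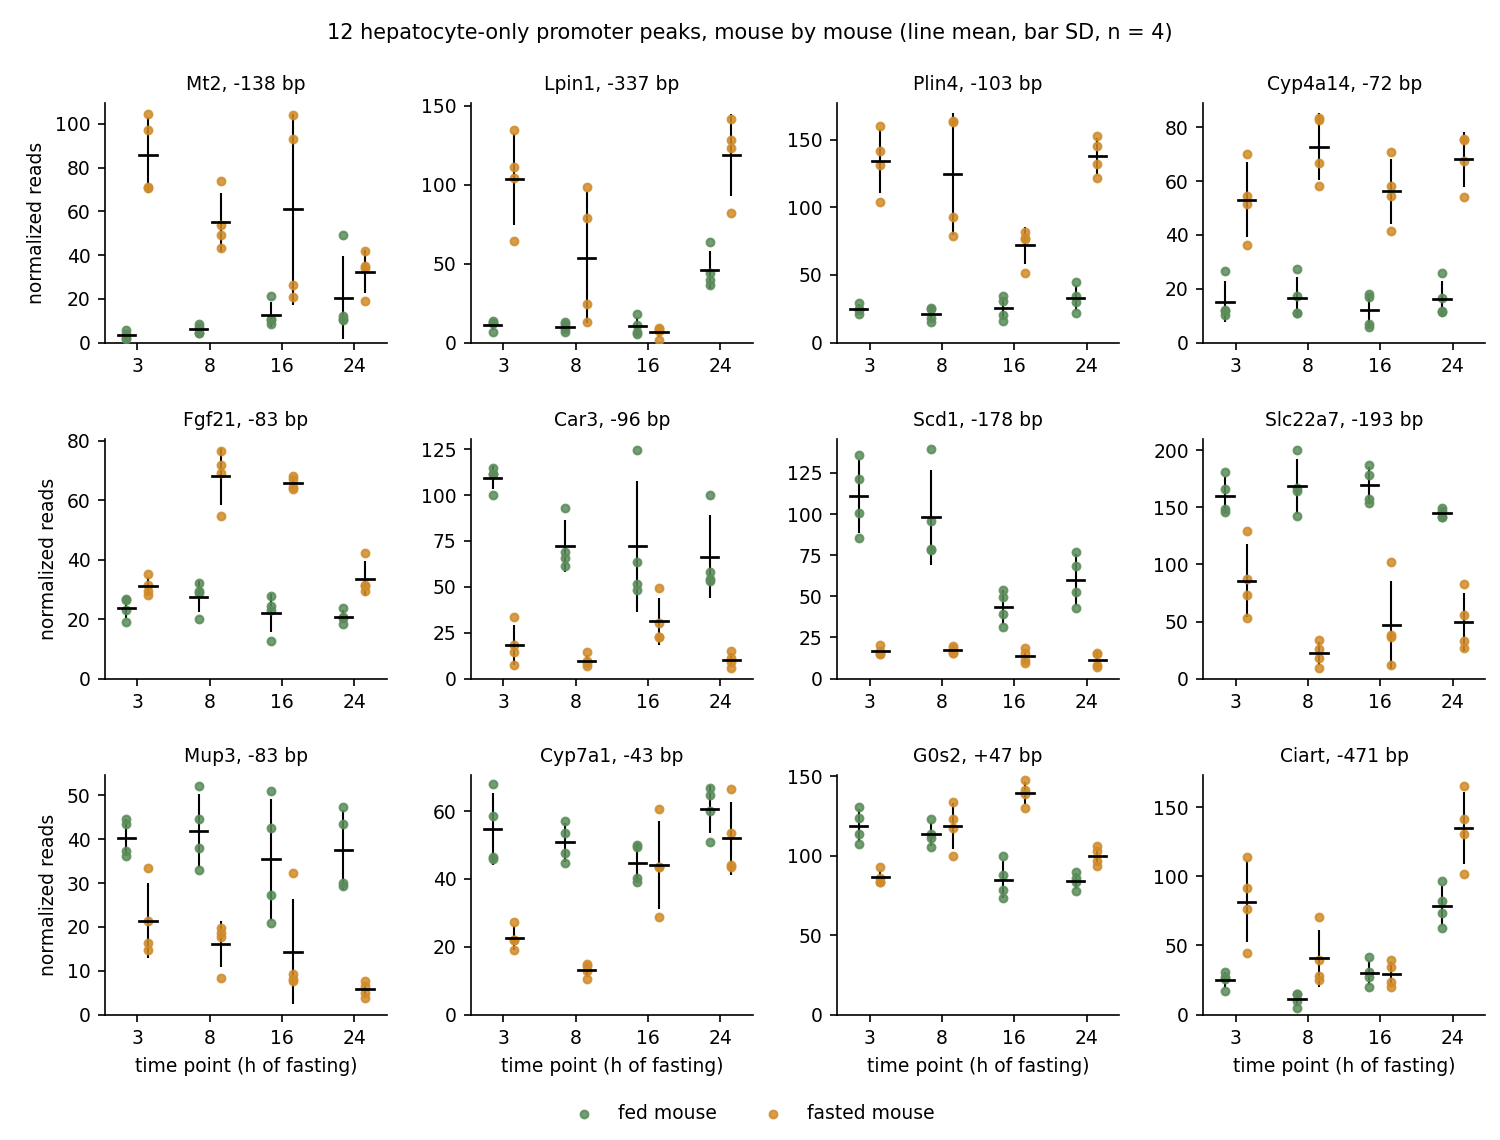
Normalized reads (vertical axis, from 0) of 12 hepatocyte-only promoter peaks at the 4 time points (horizontal axis) in fed (green) and fasted (orange) mice; each point is 1 mouse, lines are means and bars SD of 4 mice. The Mt2 peak at -138 bp separates fed and fasted mice at 3 h and not at 24 h, Plin4 and Scd1 separate them at every time, and G0s2 is lower in fasted mice at 3 h and higher at 16 h.

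The share of members that closed lay, at each time, between that of promoter peaks overlapping a macrophage peak and that of distal peaks, as deposited and with median or median ratio centring. Of 11463 overlapping promoter peaks, 5.99%, 17.8%, 21.4% and 48.2% opened at 3, 8, 16 and 24 h and 2.70%, 1.78%, 0.846% and 0.672% closed. Changes of at least 2-fold were rare there, 33 opened and 7 closed at 3 h and 9 and 8 at 24 h. Distal peaks without macrophage overlap, 27743 tested, opened in 13%, 21.1%, 18.4% and 16.0% and closed in 14.1%, 20.0%, 19.2% and 17.1%. The opened shares depend on scaling. With median ratio centring, overlapping promoter peaks opened in 6.46%, 10.3%, 9.81% and 19.3% and closed in 3.32%, 3.72%, 1.69% and 1.39%. Distal peaks then opened in 13.03%, 16.97%, 13.4% and 6.53% and closed in 13.98%, 23.8%, 23.1% and 21.9%, and members opened in 15.6%, 16.1%, 11.3% and 9.53% and closed in 7.96%, 13.1%, 11.5% and 9.41%. These shares are given without a test, since peaks are not replicates, and the median level differs between the classes, 51.5 normalized reads in members and 88.6 in overlapping promoter peaks.

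**Figure D2:**
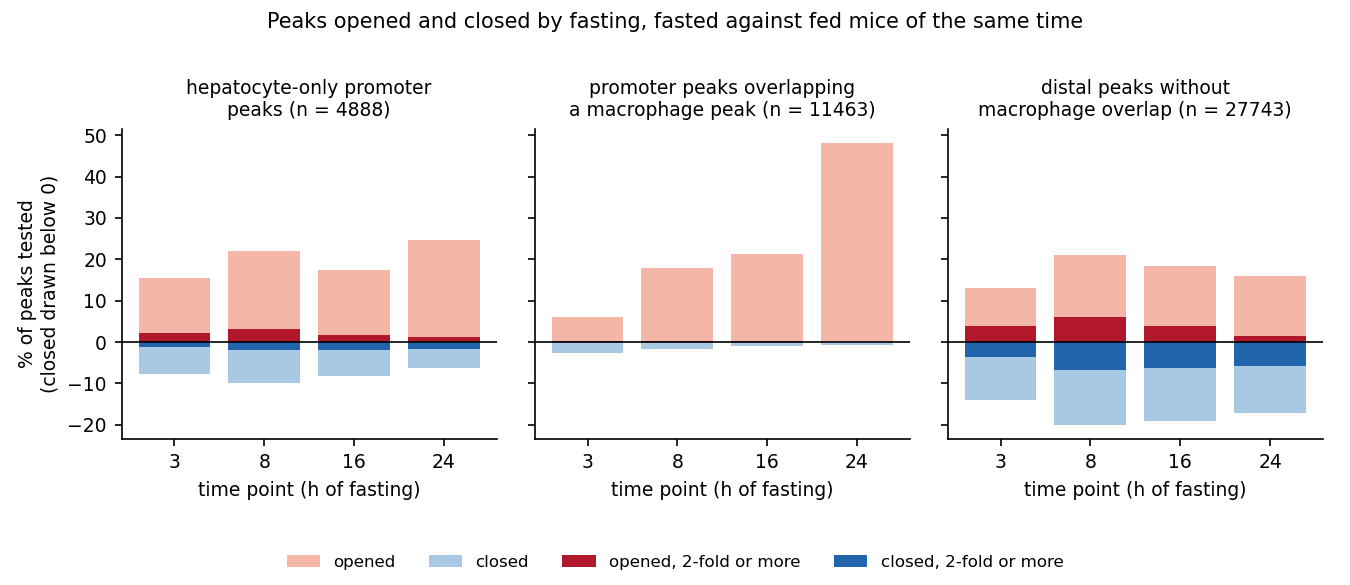
Percentage of tested peaks opened (above 0) and closed (below 0) at each time point in 3 classes of hepatocyte peaks, from the values as deposited; dark bars are changes of at least 2-fold. Closed peaks make 6.30% to 9.98% of hepatocyte-only promoter peaks, under 3% of overlapping promoter peaks and 14.1% to 20.0% of distal peaks; the 48.2% of overlapping promoter peaks opened at 24 h is 19.3% with median ratio centring.

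Few members were called at all times, but a call missing at a time does not show that there was no change then. The direct test of a difference between times, limma's F test given further on, passed at 1042 members (21.3%, and 24.1% of all tested peaks). Except for calls at 24 h alone, the counts that follow were not made over all tested peaks. They therefore do not set members apart from other peaks. Of the 4888 members, 1791 were called at no time, 1551 at 1 time, 916 at 2, 461 at 3 and 169 at all 4. Only 104 opened and 60 closed at all 4 times. At 24 h alone 485 opened (9.92%; 10.9% of all tested peaks), but 182 did with median ratio centring (3.72%; 4.54% of all). As deposited, 123 opened at 1 time and closed at another. Among the 1009 genes with at least 2 members, 11, 22, 21 and 15 had an opened and a closed member at the same time, at 3, 8, 16 and 24 h. At 16 h such genes included Gys2, the liver glycogen synthase, where the peak at -549 bp opened (0.99 ± 0.23, adjusted p = 0.00104) and the peak at 187 bp closed (-0.89 ± 0.21, adjusted p = 0.00134), although fed and fasted mice overlapped at both.

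The fasting effect itself differed between times at 1042 members (21.3%; 24.1% of all tested peaks) by limma's F test. The smallest p was at G0s2, an inhibitor of the triglyceride lipase of lipid droplets, at 47 bp (chr1:193273041-193273241; adjusted p = 6.65e-06). At 3 h fed mice had 108, 114, 124 and 131 and fasted mice 83.5, 83.7, 86.2 and 92.9, so the fasted mice were lower without overlap (-0.45 ± 0.10, adjusted p = 9.14e-04). At 16 h fed mice had 73.7, 78.6, 88.1 and 99.7 and fasted mice 130.4, 139, 141 and 147, so they were higher without overlap (0.71 ± 0.10, adjusted p = 7.92e-07). Cyp7a1, whose enzyme opens the classical route from cholesterol to bile acids, closed early and then did not differ. At 8 h its peak at -43 bp (chr4:6275574-6275774) had 44.6, 47.7, 53.6 and 57.1 in fed and 10.4, 12.7, 14.4 and 14.9 in fasted mice, with no overlap (-1.81 ± 0.18, adjusted p = 1.20e-09). At 16 h the groups overlapped, with 39.2, 40.4, 49.5 and 50.1 in fed and 28.9, 43.6, 43.6 and 60.5 in fasted mice (-0.06 ± 0.18, adjusted p = 0.833). The other 2 members of smallest p were Dirc2 (log2 fold changes 1.71, 0.91, 0.11 and -0.01 at 3, 8, 16 and 24 h) and Arhgef37 (0.25, -1.10, -1.54 and -0.31).

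Other named members whose effect differed between times took several courses, of which examples follow. Lpin1 at -337 bp rose at 3, 8 and 24 h (2.99, 1.86 and 1.33) but at 16 h fed mice had 5.31, 6.88, 11.2 and 18.1 and fasted mice 1.73, 7.21, 8.73 and 9.35, which overlap (adjusted p = 0.329). Got1, the cytosolic aspartate aminotransferase, was likewise near 0 at 16 h, with log2 fold changes of 1.62, 0.76, -0.05 and 1.45 at 3, 8, 16 and 24 h. Zbtb16, a zinc finger factor induced by glucocorticoids, had 1.66, 1.3, 0.09 and 0.65. Fgf21 at -83 bp had its largest changes in the middle of the fast (0.36, 1.249, 1.55 and 0.64), and so had Cidec, a lipid droplet protein (0.84, 1.83, 1.75 and 0.33), and Baat, which joins bile acids to taurine (0.70, 1.53, 1.68 and 0.47). Mt2 at -138 bp declined from 4.10 at 3 h to 0.85 at 24 h (adjusted p = 0.0885). At 24 h fed mice had 10.5, 11.01, 11.9 and 49.0 and fasted mice 18.8, 34.1, 35.1 and 41.8. These groups overlap only through the fed mouse at 49.0. Hamp2, a hepcidin, went from 0.46 at 3 h to -1.23 at 16 h at its peak at -129 bp.

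Gene lists give the same data by function, each counted over the members nearest to its genes, to be read against the shares of all tested peaks printed for each time. A gene with several members is counted once for each of them, and some genes, such as Mt2 and Lpin1, are in more than 1 list. Counts are as deposited, and counts under the other scalings are given where they move most, chiefly at 24 h. Fatty acid oxidation and ketogenesis had 53 members, of which 13, 27, 24 and 24 opened and 2, 2, 3 and 1 closed at 3, 8, 16 and 24 h, with median log2 fold changes of 0.15, 0.34, 0.26 and 0.28. With median ratio centring 13 opened and 1 closed at 24 h. Over all tested peaks these medians were -0.01, 0.08, 0.10 and 0.16. Pdk4, the kinase that shuts pyruvate dehydrogenase, opened at -221 bp at 8 h from 182 ± 4.28 to 342 ± 39.3 (0.90 ± 0.09, adjusted p = 9.61e-10). Plin5, which couples lipid droplets to mitochondria, opened at -32 bp from 173 ± 9.11 to 301 ± 40.7 (0.78 ± 0.09, adjusted p = 5.95e-08). Metallothionein, ATF4 and stress response genes had 15 members, at 10 genes. Of these members 7, 13, 11 and 10 opened and 0 closed (6 opened at 24 h with median ratio centring). Gdf15, a stress hormone, rose from 27.1 ± 4.63 to 74.7 ± 16.9 at 8 h (1.39 ± 0.19, adjusted p = 4.09e-07), and Chac1, a glutathione-degrading enzyme, from 40.3 ± 7.76 to 84.4 ± 8.79 at 3 h.

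The glucocorticoid response list, 35 members at 21 genes, had 17, 16, 9 and 28 opened and 0, 1, 0 and 1 closed. At 24 h, 22 opened with median centring and 16 with median ratio centring. Besides Mt2 and Zbtb16, Angptl4, an inhibitor of lipoprotein lipase, opened at -27 bp at 8 h (42.7 ± 6.91 to 117 ± 26.1; 1.39 ± 0.19), and Cebpb, a leucine zipper factor of the liver, at -553 bp at 24 h (64.4 ± 2.34 to 111 ± 12.5; 0.76 ± 0.14). Gluconeogenesis, 27 members, had 8, 11, 6 and 19 opened and 1, 0, 3 and 1 closed. G6pc, the glucose-releasing phosphatase, opened at -32 bp at 24 h from 81.8 ± 8.17 to 128 ± 18.0 (0.63 ± 0.12), and Fbp1, fructose bisphosphatase, at -9 bp from 200 ± 13.5 to 272 ± 18.2 (0.44 ± 0.09). The list also holds Lpin1, although its product is a phosphatidate phosphatase. Lpin1 had a further member, at 920 bp, that closed at 16 h (42.7 ± 5.19 to 21.4 ± 5.25, log2 fold change -0.95 ± 0.20). The Lpin1 peak at -337 bp was not called at that time. With median or median ratio centring, gluconeogenesis at 16 h had 3 opened and 4 closed.

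Fatty acid and triglyceride synthesis split both ways. Of its 43 members, 9, 15, 14 and 13 opened and 11, 9, 10 and 11 closed, and with median ratio centring 8 opened and 13 closed at 24 h. Closed members included Scd1, Srebf1 and Acly, the enzyme that makes cytosolic acetyl-CoA (35.2 ± 6.07 to 10.2 ± 1.75 at 16 h; -1.61 ± 0.19). Opened members included Plin4, Cidec and Lpin1, whose products store or shape triglyceride. Cholesterol synthesis had 11 members, of which 1, 2, 2 and 2 opened and 3, 3, 4 and 2 closed. Insig1, which holds the sterol sensor in the endoplasmic reticulum, opened at 641 bp at 3 h (1.27 ± 0.17).

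Lipoprotein genes had 27 members, of which 4, 6, 7 and 17 opened and 7, 3, 2 and 2 closed. With median ratio centring 3 opened at 16 h and 9 at 24 h, and 2 closed at each. Abcg8, a sterol exporter, opened at 3 h from 21.3 ± 5.03 to 50.5 ± 3.30 (1.19 ± 0.17). Amino acid catabolism and the urea cycle, 92 members, had 13, 16, 13 and 42 opened and 5, 6, 4 and 0 closed, although at 8 h median centring gave 8 and 9. At 24 h, 24 opened and 1 closed with median ratio centring. Slc25a15, the mitochondrial ornithine carrier, opened at 26 bp at 24 h (173 ± 12.1 to 263 ± 12.2; 0.61 ± 0.09), and Haao, of tryptophan breakdown, closed at 8 h (30.0 ± 4.59 to 9.93 ± 2.30; -1.43 ± 0.21). Plasma proteins, 62 members, had 8, 9, 9 and 23 opened and 6, 15, 4 and 0 closed, with 4 and 5 at 16 h and 8 and 0 at 24 h under median ratio centring. Here Fetub, a fetuin, opened at 3 h (106 ± 7.94 to 159 ± 12.7; 0.58 ± 0.10), and A1bg closed at 8 h (44.2 ± 5.90 to 16.9 ± 6.40; -1.34 ± 0.29). The markers Alb (0.36, adjusted p = 0.0135, at -89 bp) and Apob (0.45, adjusted p = 0.00212, at -46 bp) opened at 24 h as deposited. These peaks are named here because they are hepatocyte markers, after their values were seen. They were picked from the 14 marker genes with a member and do not stand for the rest. At 24 h the median log2 fold change of all tested peaks was 0.16 as deposited and 0.02 with median ratio centring.

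Coagulation and complement genes, 53 members, had 0, 2, 9 and 11 opened and 6, 9, 5 and 1 closed, with 1 and 16 at 8 h and 4 and 5 at 24 h under median centring. With median ratio centring 2 opened and 6 closed at 24 h. F10 at -90 bp (chr8:13037118-13037318) had 76.1, 77.6, 78.9 and 87.9 in fed and 37.1, 37.5, 46.6 and 58.5 in fasted mice at 3 h, without overlap (-0.83 ± 0.16, adjusted p = 2.41e-04). Acute phase genes, 23 members, had 6, 7, 7 and 4 opened and 0, 2, 2 and 3 closed, with 4 and 2 at 16 h and 1 and 4 at 24 h under median ratio centring. Of these, the 3 Hp members named opened by 3 h or 8 h, and Hamp2 closed at 16 h (57.5 ± 10.9 to 23.4 ± 5.09) while Hamp, the other hepcidin gene, opened at 24 h (129 ± 17.1 to 197 ± 27.4). The growth hormone and STAT5 list, 32 members, had 3, 2, 2 and 7 opened and 7, 7, 5 and 2 closed (2 and 11 at 8 h and 1 and 3 at 24 h under median ratio centring), with median log2 fold changes of -0.17, -0.22, -0.09 and 0.14. At 8 h Prlr, the prolactin receptor, closed from 117 ± 14.4 to 60.5 ± 16.7 (-0.97 ± 0.17), and Cish, a STAT5 target that restrains cytokine receptors, from 140 ± 19.3 to 57.9 ± 11.1 (-1.25 ± 0.23). Igfbp1, a binder of insulin-like growth factors, opened at 3 h from 90.4 ± 4.60 to 162 ± 17.8 (0.82 ± 0.12).

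Bile acid genes, 31 members, had 4, 7, 8 and 9 opened and 4, 3, 2 and 0 closed. Under median ratio centring 6 opened and 4 closed at 16 h, and 2 and 1 at 24 h. At 16 h Cyp8b1, which sets the ratio of cholic acid, opened at 32 bp from 58.1 ± 10.4 to 110 ± 22.6 (0.89 ± 0.16), and Nr0b2, the repressor SHP, closed at -381 bp from 165 ± 13.9 to 103 ± 7.51 (-0.67 ± 0.11). Cytochrome P450 genes, 62 members, had 5, 9, 17 and 19 opened and 5, 13, 4 and 3 closed, with 11 and 6 at 16 h and 9 and 3 at 24 h under median ratio centring. Phase II enzymes and xenobiotic receptors, 82 members, had 10, 8, 13 and 11 opened and 12, 15, 5 and 4 closed, with 6 and 6 at 16 h and 0 and 7 at 24 h under median ratio centring. Nr1i3, the xenobiotic receptor CAR, opened at -12 bp at 16 h (133 ± 21.0 to 236 ± 40.9; 0.81 ± 0.12), and Ces2c, a carboxylesterase, closed (77.5 ± 9.86 to 37.0 ± 9.76; -1.05 ± 0.15). Solute carriers, 161 members, had 32, 43, 29 and 55 opened and 10, 12, 17 and 7 closed, but 16 and 27 at 16 h and 19 and 11 at 24 h under median ratio centring.

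Hepatocyte transcription factors, 46 members, had 7, 7, 13 and 18 opened and 2, 4, 5 and 1 closed, and 6 and 6 at 8 h under median centring. With median ratio centring 7 opened and 3 closed at 24 h. Hnf4a, the factor that sets hepatocyte identity, had 3 members at 2 separate start regions. The peak at -91 bp closed at 8 h from 92.4 ± 6.84 to 57.4 ± 5.20 (-0.67 ± 0.13, adjusted p = 1.29e-04) and was lower at 16 and 24 h too. A second Hnf4a member, at -35 bp of another start, opened at 24 h (0.36, adjusted p = 0.00602). Insulin signalling and FOXO targets, 27 members, had 5, 10, 3 and 11 opened and 4, 3, 5 and 5 closed. At 24 h the counts were 5 and 5 under median centring and 4 and 7 under median ratio centring. Glucose uptake, glycolysis and fructose genes, 25 members, had 4, 5, 3 and 8 opened and 2, 3, 4 and 2 closed, with 3 and 4 at 8 h and 2 and 2 at 24 h under median ratio centring. Of the 5 cholangiocyte members, 2, 1, 1 and 2 opened and 0, 1, 1 and 0 closed. Of these, Krt23 had 38.1 ± 7.88 in fed mice at 8 h, where the lower quartile and median level of all members were 33.1 and 51.5. The part of bile duct cells in the other results was not tested.

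**Figure D3:**
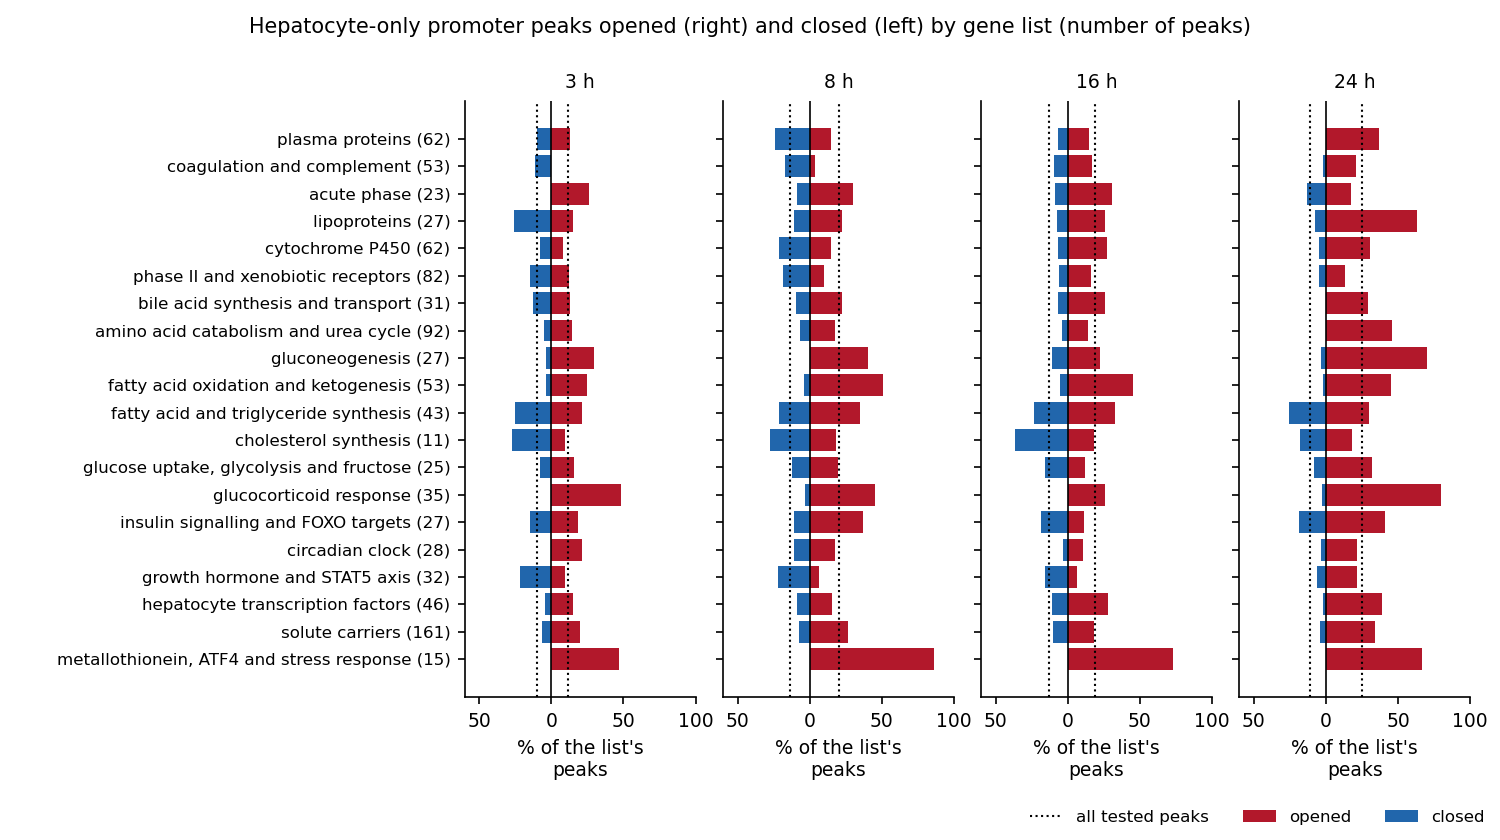
Percentage of the hepatocyte-only promoter peaks of each gene list that opened (red, to the right) or closed (blue, to the left) at 3, 8, 16 and 24 h, with the number of peaks in brackets, from the values as deposited; dotted lines mark the shares of all tested peaks. The metallothionein, ATF4 and stress list has 13 of 15 peaks, at 10 genes, opened at 8 h. The glucocorticoid list has 28 of 35 peaks, at 21 genes, opened at 24 h, or 16 of 35 with median ratio centring.

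In fed mice the time of day changed 969 members (19.8%; 21.1% of all tested peaks) by limma's F test over the 4 fed groups. Their fed mean was highest at ZT15 for 132 (13.6%; 16.3% of all peaks that passed this test), at ZT20 for 124 (12.8%; 13.3%), at ZT4 for 463 (47.8%; 42.2%) and at ZT12 for 250 (25.8%; 28.2%). These times are from the values as deposited. Summed normalized reads of a fed mouse were 3.11e+06 to 3.21e+06 at ZT15, 3.19e+06 to 3.33e+06 at ZT20, 3.31e+06 to 3.51e+06 at ZT4 and 3.07e+06 to 3.18e+06 at ZT12. Whether the time of the highest mean depends on scaling was not tested. The highest and lowest fed means differed at least 2-fold at 174 (18.0%), against 2352 (23.8%) of the 9893 peaks that passed. Ciart, a repressor of the circadian clock, had the widest range of those highest at ZT12, 6.20-fold, at -471 bp (chr3:95882599-95882799). At ZT20 the fed mice had 4.59, 9.75, 14.9 and 14.9 and at ZT12 62.8, 73.4, 82.2 and 96.6, with no overlap (adjusted p = 8.91e-08 over time). Fasted mice were higher at both times, with 24.9, 28.2, 39.6 and 70.3 at 8 h and 102, 131, 141 and 165 at 24 h, and did not overlap the fed mice (1.70 ± 0.28, adjusted p = 1.46e-05, and 0.76 ± 0.28, adjusted p = 0.0351).

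Per3, a clock repressor, was also highest at ZT12, with 24.9, 19.9, 12.5 and 63.9 at ZT15, ZT20, ZT4 and ZT12, and in fasted mice it was lower at 24 h (31.1 ± 6.06; -1.01 ± 0.25, adjusted p = 0.00196). The Mt2 peak at 60 bp rose through the fed series, with means of 10.9, 19.8, 48.2 and 68.1. Members highest at ZT4 were led by Necab2 (2.88-fold), Mat2b, a regulatory subunit of methionine adenosyltransferase (2.87-fold), and Trpm1 (2.87-fold). Those highest at ZT15 were led by Pdxp (4.22-fold), Trak1, a mitochondrial transport adaptor (3.25-fold), and Hspb1, a small heat shock protein (2.83-fold). Ccdc69 (2.70-fold) and Loxl4, a lysyl oxidase (2.67-fold), led those highest at ZT20. Of the 28 members of clock genes, 12 changed over time in fed mice, and 6, 5, 3 and 6 opened and 0, 3, 1 and 1 closed in fasting, turning to 3 and 5 at 8 h and 1 and 2 at 24 h under median ratio centring.

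**Figure D4:**
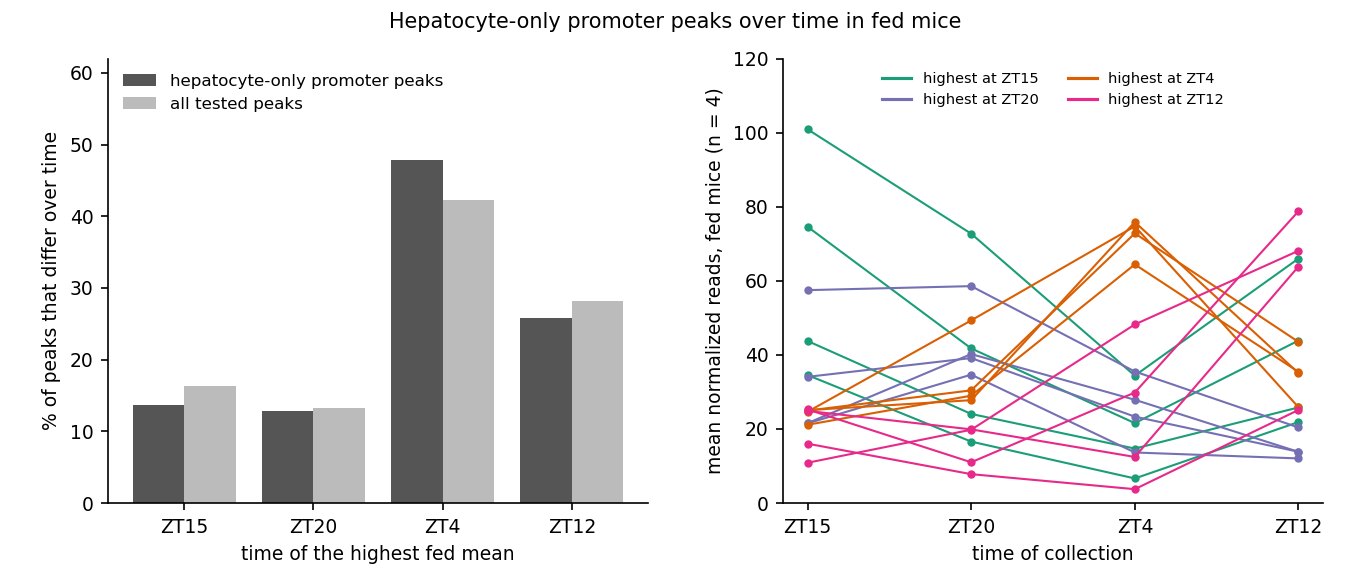
Left, percentage of the peaks that differ over time in fed mice whose mean is highest at each collection time, for hepatocyte-only promoter peaks (dark) and all tested peaks (light); right, fed means (normalized reads, n = 4) of the 16 named members, coloured by the time of their highest mean. From the values as deposited, 47.8% of the 969 members have their highest mean at ZT4, against 42.2% of all tested peaks that differ over time. The trace that reaches 78.8 at ZT12 is Ciart.

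Members stood farther from the TSS than overlapping promoter peaks, a property on which the rule of no overlap itself acts: 1766 members were at genes with an overlapping promoter peak. Within 100 bp of the TSS lay 32.1% of members and 60.7% of overlapping promoter peaks. By annotation 3242 members were at a promoter or TSS, 1163 in an intron, 152 in an exon and 80 at a transcription end. For 1885 members (38.6%) the gene had a macrophage promoter peak elsewhere, and 1410 members had a macrophage peak within 500 bp. The 98 members in the last 50 bp inside the limit of 1000 bp had a median level of 48.3 normalized reads, and the 110 hepatocyte peaks in the first 50 bp beyond it 47.8. The 133 members within 50 bp of a macrophage peak had 53.4, and the 86 promoter peaks that overlap one by at most 50 bp had 52.9.

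RefSeq promoter windows, from 250 bases before to 50 after a TSS, were matched by gene ID, and the TSS of 11925 of 13138 promoter peaks in the table agreed within 2 bp with the one the distances were measured from. Of the 4888 members, 1733 lay over a window of their gene. The ratio of observed to expected CpGs had a median of 0.536 in the 1577 windows under members only, 0.827 in the 7116 under overlapping promoter peaks only and 0.384 in all 32851 windows. A ratio of at least 0.6 was found in 44.3%, 86.8% and 35.8% of these. Among members over one of the windows under members only, those with a ratio of at least 0.6 (723) closed in 3.18%, 4.70%, 3.73% and 3.60% at 3, 8, 16 and 24 h. Those under 0.6 (925) closed in 10.2%, 14.7%, 10.3% and 8.54%. The opened shares were 16.7%, 22.8%, 17.2% and 29.5% against 10.4%, 17.2%, 17.5% and 25.2%. Of all tested peaks 11.3%, 20.3%, 19.0% and 25.3% opened and 10.3%, 13.7%, 12.8% and 11.4% closed. All of these shares are as deposited, and those by CpG ratio were not computed under other scalings. They are descriptions without a test.

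**Figure D5:**
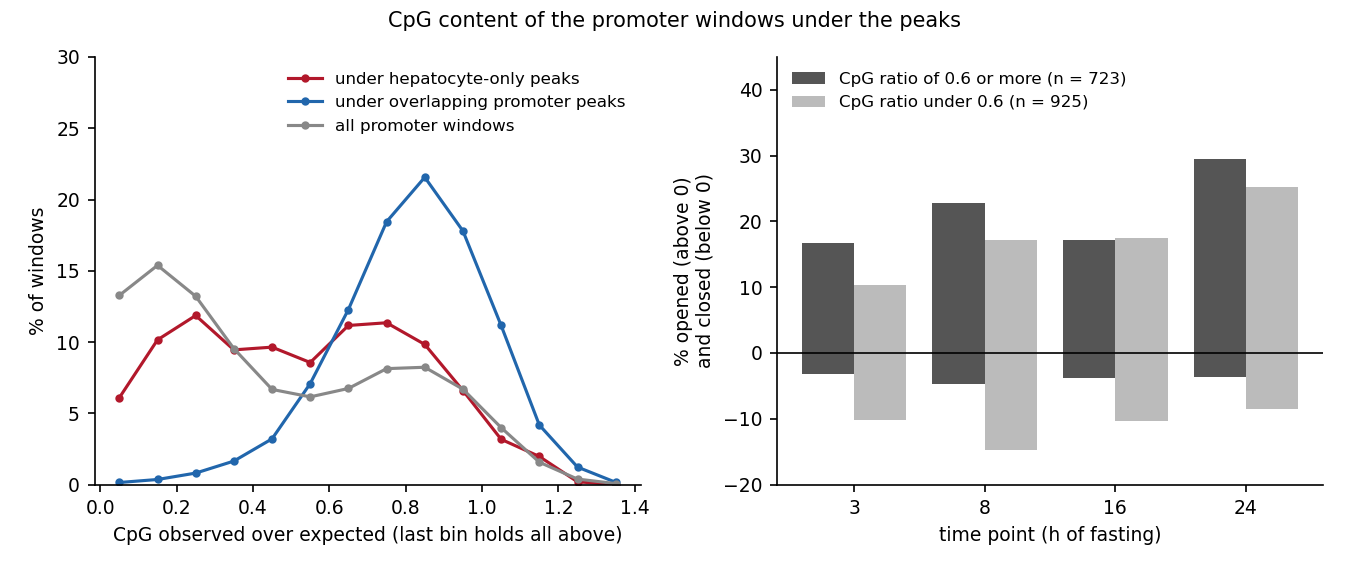
Left, distribution of the CpG observed over expected ratio in 300-base promoter windows under hepatocyte-only promoter peaks (red), under overlapping promoter peaks (blue) and in all windows (grey); right, percentage of members opened (above 0) and closed (below 0) at each time by that ratio. Windows under members spread over the whole range (median 0.536) while those under overlapping peaks gather around 0.827. From the values as deposited, members under 0.6 have the larger closed share at each time.

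Motifs were searched on both strands of the 300-base windows, and a match is only a description. Those with fewer matches under members than under overlapping promoter peaks were the GC box (GGGCGG; 53.8% and 73.5%, 35.7% of all windows), the CCAAT box (CCAAT; 36.5% and 41.9%, 37.4% of all), the ETS site (CCGGAAGT; 2.35% and 11.2%, 3.89% of all), the NRF1 site (GCGCATGCG; 0.698% and 5.41%, 1.75% of all), the E-box (CACGTG; 8.24% and 11.9%, 7.15% of all), the cAMP response element (TGACGTCA; 0.824% and 4.23%, 1.79% of all) and the metal response element (TGCACNC or TGCGCNC; 32.4% and 39.2%, 25.7% of all). Those with more were the TATA box (TATAAA; 10.6% and 5.33%, 13.6% of all), the C/EBP site (TTGCNNAA; 13.3% and 7.29%, 10.8% of all), the HNF4 site (CAAAGTCCA; 1.59% and 0.225%, 0.475% of all), the forkhead site (TGTTTAC; 3.81% and 2.39%, 3.65% of all), the D-box (TTATGNAA; 4.0% and 1.49%, 3.38% of all) and the ROR element (TAGGTCA; 3.55% and 1.53%, 2.61% of all). The sterol regulatory element (TCACNCCAC) was in 1.90%, 0.871% and 1.24%, and the STAT5 site (TTCNNNGAA) in 6.91%, 6.52% and 8.30%. The remaining motifs, the glucocorticoid response element (GNACA as an inverted repeat with a spacer of 3) and the DR1 element (AGGNCA, direct repeat, spacer 1), were each in under 1% of windows of members. Those shares were 0.507% and 0.698% under members, 0.253% and 0.169% under overlapping promoter peaks and 0.475% and 0.381% in all windows. Among windows of members opened at 3 h, 15.4% of 214 held an E-box, against 6.78% of the 118 of members closed at 3 h.

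The 10 members of highest level were at Garem1 (mean of 389 normalized reads), Paqr3 (357), Svip (352), Rhpn2 (338 and 316), Pfkfb2 (316), Dock9 (310), Baiap2l1 (303), Magi3 (303) and Gcc1 (292). At 3 h their log2 fold changes ran from -0.05 to 0.21. At 24 h they ran from 0.15 to 0.41, that of Pfkfb2, a phosphofructokinase that makes fructose 2,6-bisphosphate, being 0.41 (adjusted p = 5.8e-05). These values are as deposited, where the median of all tested peaks at 24 h was itself 0.16. With median ratio centring that median was 0.02.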

How the data were processed

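Per the labels, bead-captured nuclei were transposed, amplified by 12 cycles of PCR and sequenced in read pairs. The submitters' processing notes name mm10, BWA 0.7.5a-r405, SAMtools, HOMER and DESeq2 without their roles. The authors deposited a normalized signal per 200 bp peak and mouse. All values of a library are whole multiples of 1 step (tolerance 0.01 read), so reads could be recovered. Of the macrophage table only positions were used, and its 32 value columns were not.

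Here limma 3.58.1 (R 4.3.3) was fitted to log2(value + 2) with 8 group means and a variance trend, over peaks with a mean of at least 10, with Benjamini-Hochberg adjustment. Pairwise tests are two-sided, differences over time are F tests, and the fit was tested on simulated data. Alternatives were other offsets, filters, scalings, variance models, a library number block, edgeR 4.0.16 and DESeq2 1.42.0 on the reads, other member rules, and each mouse left out. Median ratio centring was chosen after seeing the data. Members and lists were chosen with earlier results of these data known. The peaks named are, per time, the 6 opened and 6 closed of largest change without overlap of mice, up to 3 of smallest p per list, 4 per fed time, 4 for the difference between times and 10 by level, passing over predicted genes. No pair of libraries had equal read numbers at more than 3.43% of peaks. Some genes are not reported here.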

Additional observations from a re-analysis of the deposited data

Results flagged for a closer look

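The check covered 60 groups of 4 mice, at the peaks given mouse by mouse and for the share of reads in members. In 3 of them a mouse stood apart from the other mice, the share that chance marks, about 1 group in 20. These were a fed mouse at 24 h with 49.0 normalized reads at the Mt2 peak at -138 bp, a fed mouse at 3 h with 6.53 at the Lpin1 peak at -337 bp, and a fasted mouse at 8 h with 22.6 at the Cyp2f2 peak at -82 bp. A difference of the fasting effect between times was found at 1042 members by limma's F test. The 4 named members of smallest p were at G0s2 (adjusted p = 6.65e-06), Arhgef37 (adjusted p = 1.03e-05), Dirc2 (adjusted p = 1.21e-05) and Cyp7a1 (adjusted p = 1.21e-05).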

How the results depend on the processing

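Opened members at 24 h (1203) fell to 740 with median centring, 466 with median ratio centring, 639 with quantile normalization, 500 with edgeR and 460 with DESeq2. Those at 16 h (850) fell to 553 with median ratio centring, 545 with quantile normalization, 555 with edgeR and 542 with DESeq2. Closed members at 24 h (308) rose to 479 with edgeR and 473 with DESeq2. The cause was not tested. Asking for at least 2-fold left 106, 157, 87 and 55 opened and 61, 94, 90 and 83 closed at 3, 8, 16 and 24 h. With fewer members, those without a macrophage peak within 500 bp (3478) had 466 opened at 3 h and 661 at 8 h, and those within 500 bp of the TSS (3509) had 237, 317, 258 and 192 closed. With each mouse left out in turn, opened counts ran from 533 to 776, 832 to 1029, 640 to 911 and 830 to 1198, and closed counts from 285 to 354, 397 to 482, 311 to 451 and 239 to 270. All other alternatives kept the counts of opened and closed members within 1.5 times, as did every alternative run for the counts over time in fed mice (969) and between times (1042). Of 241 named fold changes, 0 reversed and 22 lost their call in at least 1 alternative, among them Fbp1 and Krt23. A block for runs of consecutive library numbers kept every count within 1.5 times. Apart from this block no paired analysis was made, because the labels give the groups no shared replicate numbers. Read depth limits the detection of small changes at low peaks.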
